A study of Mus musculus with 6 samples.

Results

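The genes described here are the ubiquitin-specific proteases of the mouse, the Usp genes. They were selected by symbol: rows named USP and a number, with at most 1 further letter, so that Usp9x, Usp9y and Usp27x were kept and the Usp17-like copies were left out. Of the 18388 rows of the table, 50 met this rule. The family was taken up with its PFOA and DMSO levels already known, so the differences between the groups below are a description and no test of the family is given.

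Expression was measured by RNA-seq of polyadenylated RNA in morula-like aggregates, 3-dimensional clusters grown from mouse expanded pluripotent stem cells as a stand-in for the embryo at compaction. The 3 libraries of the control group came from aggregates given the vehicle, DMSO, and the 3 libraries of the treated group from aggregates given perfluorooctanoic acid (PFOA), a persistent fluorinated surfactant. All 6 shared the cell type and the culture, N2B27LCDM medium followed by an induction medium. Dose, exposure time, strain and stem cell line are not stated by the labels, which also leave unsaid whether replicates are separate cultures, so the spread given here may be technical. The series title ties c-MYC to compaction, and the family includes proteases known to act on MYC.

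Ubiquitin is a small protein that is joined to other proteins, singly or in chains, and marks them for the proteasome, for endocytosis or for a change in activity. Deubiquitinases cut it off again, and the Usp proteins are their most numerous family, cysteine proteases that share a catalytic fold and differ in the domains that choose the substrate. In pluripotent cells and embryos, members are known for trimming ubiquitin from histones, for setting the lifetime of MYC and p53, and for guarding junction and signalling proteins.

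The libraries were alike. Spearman's rho between any 2 of them, across the 11876 genes with a mean of at least 1 FPKM (a read level divided by transcript length and library size), lay between 0.991 and 0.997. All 10 pluripotency markers checked reached that mean, with summed levels of 4665 to 4880 FPKM with DMSO and 4032 to 4517 with PFOA. Of these 10, 5 were higher in mean with PFOA and 5 lower. The largest falls in FPKM were in Dppa5a, from a mean of 2239 to 1952, and Pou5f1, from 979 to 885. Of 8 fibroblast markers 6 did, at summed levels of 21.3 to 26.0 and 19.7 to 21.8, and of 4 primitive endoderm markers 1 did, at 3.30 to 3.88 and 3.50 to 3.93. Of 4 trophectoderm markers 3 did, at 475 to 544 and 458 to 528, carried by the keratins Krt8 and Krt18. None of these markers (0) was at 0 in all libraries. The part of other cell types in the results below was not tested, and in bulk RNA a change in the number of expressing cells cannot be told apart from a change in RNA per cell.

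Nearly the whole family was expressed. Of the 50 genes, 47 reached a mean of 1 FPKM and entered the comparison of PFOA with DMSO: 8 had a mean of at least 50 FPKM, 20 lay between 10 and 50, and 19 between 1 and 10. Their median was 13.6 FPKM, against 12.04 for all tested genes. FPKM is a level per transcript length, so members can be ranked by it. Usp7, which removes ubiquitin from p53 and from its ligase Mdm2, stood first with 140.4 ± 3.0 FPKM with DMSO and 156 ± 6.3 with PFOA, and supplied between 12.2% and 13.2% of the family's summed FPKM in each library. Usp10, a cytoplasmic p53 protease, followed with 88.7 ± 0.62 FPKM with DMSO and 91.2 ± 1.1 with PFOA, and Usp48, which acts on the ubiquitin that BRCA1 places on histone H2A, with 74.1 ± 2.9 FPKM with DMSO and 83.6 ± 4.0 with PFOA (SD, n = 3 in each group). Usp1, which deubiquitinates FANCD2 and PCNA, Usp5, which recycles free ubiquitin chains, the proteasome-bound Usp14 and the splicing factor Usp39, a member without protease activity, came next. Their group means all lay between 58.2 and 69.0 FPKM.

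**Figure D1:**
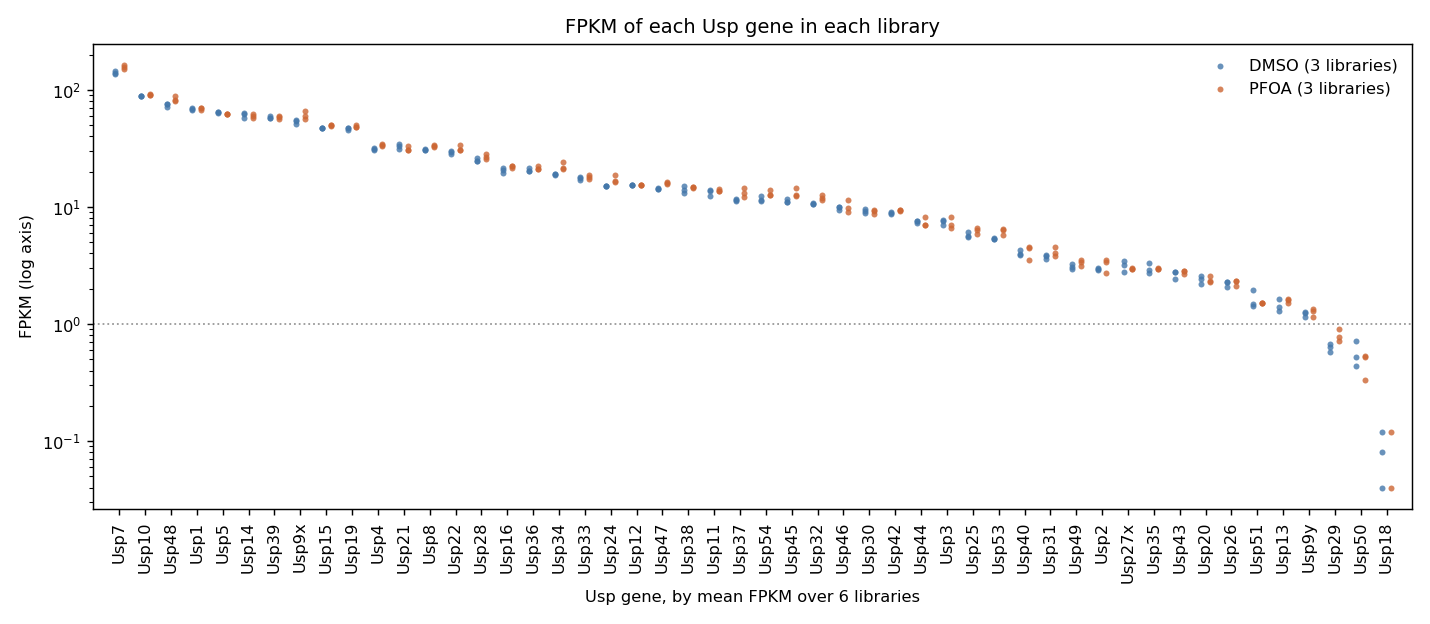
FPKM (vertical log axis) of the 50 Usp genes (horizontal axis, by mean level) in each library: blue points are the 3 DMSO libraries and orange points the 3 PFOA libraries. The levels run from Usp7 at 138 to 163 FPKM down to Usp18 at 0.12 or less (its value of 0 in PFOA 1 cannot be drawn), and the distances between genes are far larger than those between the groups; the dotted line is 1 FPKM.

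The 3 genes below the filter were Usp29, Usp50 and Usp18. Usp29, an imprinted gene expressed from the paternal allele, was 0.67, 0.58 and 0.64 FPKM with DMSO and 0.9, 0.72 and 0.78 with PFOA. The 2 groups did not overlap, but more than 20% of its 50-nt words occur in transcripts of other genes, so reads could be shared. Usp50 was 0.44, 0.52 and 0.71 FPKM with DMSO and 0.33, 0.52 and 0.53 with PFOA, and Usp18, which removes the ubiquitin-like protein ISG15 in the interferon response, was 0.08, 0.04 and 0.12 FPKM with DMSO and 0, 0.04 and 0.12 with PFOA. The least expressed gene inside the filter was Usp9y, at 1.21 ± 0.064 FPKM with DMSO and 1.26 ± 0.099 with PFOA, and the first outside it was Usp29, at 0.63 ± 0.046 FPKM with DMSO and 0.8 ± 0.092 with PFOA. Usp1, Usp14, Usp33, Usp38 and Usp49 are in the same position, with at least 20% of such words found elsewhere, and their values are uncertain to that extent.

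Close relatives differed widely in level. The gene pairs compared are paralogs from textbook knowledge. Usp9x exceeded its Y-linked copy Usp9y by 46.3-fold in mean FPKM over all 6 libraries. Usp5 exceeded Usp13 by 41.7-fold, and Usp22, the histone H2B protease of the SAGA complex, exceeded Usp27x by 9.98-fold and Usp51 by 19.5-fold. In each of these pairs every library showed the same order. Other pairs were close: Usp15 was 1.5-fold above Usp4, Usp12 1.55-fold above Usp46, and Usp31 1.46-fold above Usp43.

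Promoter sequences from RefSeq (build GRCm38.p6, 250 bases before to 50 after the gene's start) were found by symbol for 38 of the 50 genes. There was no entry for Usp1, Usp5, Usp9x, Usp14, Usp18, Usp22, Usp33, Usp39, Usp42, Usp43, Usp44 and Usp53. The MYC-MAX E-box, CACGTG, which reads the same on both strands, was in 4 of the 38 (10.5%), against 7.15% of all 32851 promoters in the table and 10.2% of the 12212 promoters of tested genes. The share in the family was thus near that of expressed genes. The 4 sites are shown because the series concerns MYC, each as 30 bases that end with the E-box in capitals, 5′ to 3′ on the strand of the gene.
Usp4, chr9:108347800-108347829, plus strand: gtcgacggcggtgccgggcgcgcgCACGTG
Usp16, chr16:87454884-87454913, plus strand: ctccacagttaacactgcagtgaaCACGTG
Usp31, chr7:121707459-121707488, minus strand: ggcggggctgcgatgccagcgagtCACGTG
Usp32, chr11:85139953-85139982, minus strand: gaagggggcggggtgggagcgggtCACGTG
The first base of the E-box lies 7 bases before the start of Usp4, 77 before that of Usp16, 22 before that of Usp31 and 3 before that of Usp32, where the site runs across the start. A match describes the letters and is not evidence of binding.

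The promoters were rich in G and C. Their median GC content was 65.0%, with a median of 27.5 CG dinucleotides, against 61.0% and 21 for promoters of tested genes and 52.7% and 7 for all promoters. The GC box GGGCGG, read on both strands, was in 26 of 38 (68.4%), against 63.7% of tested genes' promoters and 35.7% of all. The ETS core CCGGAAG was in 8 (21.1%, against 18.1% and 8.86%), the CRE core TGACGT in 7 (18.4%, against 11.3% and 7.51%) and the TATA core TATAAA in 2 (5.26%, against 6.98% and 13.6%), Usp19 and Usp40. The 250 bases before the start are shown for Usp7, the most abundant member, and Usp34, the member with the largest difference between the groups, with GC boxes on either strand in capitals.
Usp7, chr16:8738343-8738592, minus strand: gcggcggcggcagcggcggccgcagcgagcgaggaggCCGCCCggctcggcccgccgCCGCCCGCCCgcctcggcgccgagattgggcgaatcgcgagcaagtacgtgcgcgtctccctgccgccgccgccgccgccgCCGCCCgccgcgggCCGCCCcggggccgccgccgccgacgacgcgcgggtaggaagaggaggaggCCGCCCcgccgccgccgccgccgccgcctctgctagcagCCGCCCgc
Usp34, chr11:23306645-23306894, plus strand: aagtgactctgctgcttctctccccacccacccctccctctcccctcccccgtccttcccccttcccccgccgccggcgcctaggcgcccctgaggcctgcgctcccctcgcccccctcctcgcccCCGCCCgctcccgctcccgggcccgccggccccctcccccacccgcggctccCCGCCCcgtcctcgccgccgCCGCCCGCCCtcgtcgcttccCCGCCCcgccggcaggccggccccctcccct
Counting overlapping matches, the window of Usp7 held 7 GC boxes and that of Usp34 held 5, all of them as CCGCCC on the strand of the gene. Neither window held an E-box.

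With PFOA, most members were slightly higher, by amounts too small for any 1 of them to pass a test over all genes. In limma on log2(FPKM + 1), 37 of the 47 tested members had a log2 fold change above 0 and 10 below it, whereas 47.6% of all tested genes were higher and 52.4% lower. The median log2 fold change of the members was 0.071 against −0.0065 over all tested genes, and single members ranged from −0.075 for Usp21 to 0.23 for Usp34. With a trend on transcript length removed from each library, 25 members were higher and 22 lower, with a median of 0.012. At a Benjamini-Hochberg adjusted p under 0.05, 0 of 47 members passed, beside 0.00842% of all genes (1 of 11876). At an unadjusted p under 0.05, 15 members were higher, where 8.56% of all genes were, and 0 members were lower, where 12.5% were. Every PFOA library lay above every DMSO library for 19 members, against 13.5% of all genes, and below for 1 member, Usp5, against 13.7%. Because the family was picked with these differences known, nothing is read from its excess over these shares. Fold changes are on the log2(FPKM + 1) scale, which understates the change of low genes, and the median half-width of a member's 95% confidence interval was 0.12.

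Summed over the 50 genes, the family amounted to 1118, 1141 and 1142 FPKM in the DMSO libraries (replicates 1 to 3, the order used throughout) and to 1233, 1180.1 and 1185 in the PFOA libraries. The groups did not overlap, and the mean was 5.83% higher with PFOA (1133 ± 13.6 against 1199 ± 29.3, SD, n = 3 each). Without Usp7 it was 5.09% higher. As a share of all FPKM in the library, the family was 0.171%, 0.174% and 0.178% with DMSO and 0.211%, 0.187% and 0.190% with PFOA. PFOA 1, which has the lowest total FPKM of the 6 libraries, gave the highest share. Of the 47 tested members, 27 were highest in PFOA 1, a larger share than the 26.6% of all tested genes. Without PFOA 1 the median log2 fold change of the members was 0.051.

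**Figure D2:**
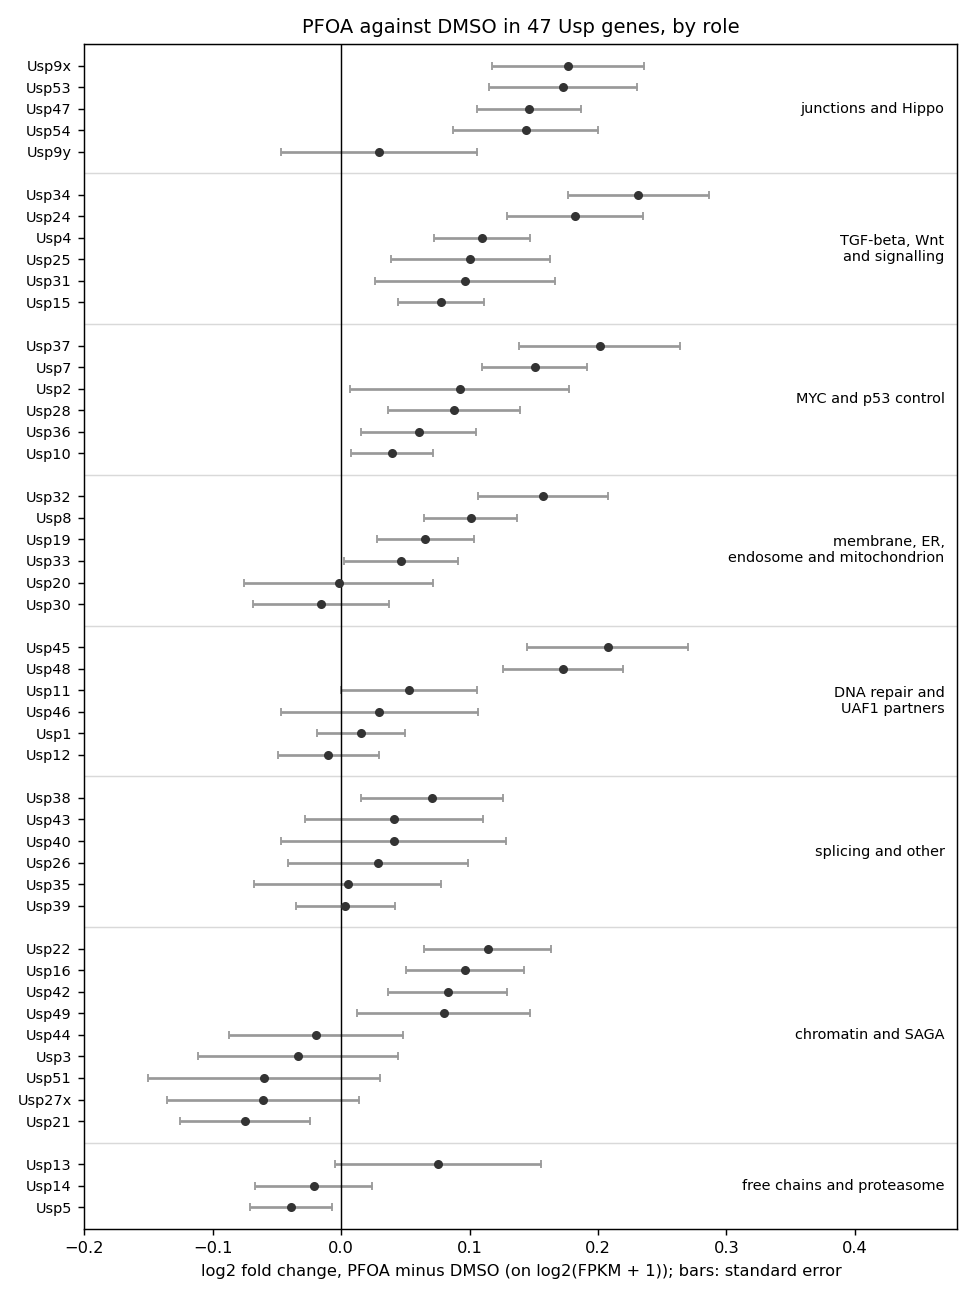
Log2 fold change of PFOA minus DMSO (horizontal axis, on log2(FPKM + 1); bars are the standard error) for the 47 tested Usp genes, grouped by role on the vertical axis. The junction, signalling, and MYC and p53 groups have all their points to the right of 0, from 0.030 for Usp9y to 0.23 for Usp34. So does the splicing and other group, from 0.0033 for Usp39 to 0.071 for Usp38. The remaining groups fall on both sides.

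The proteases of MYC and p53 were all higher in mean with PFOA: 6 of 6 members, with a median log2 fold change of 0.090. Of all tested genes 47.6% were higher. The group's median transcript length was 4439 nt, and 70.5% of all tested genes of 4000 to 5999 nt were higher. With a trend on length removed from each library, the group median was 0.061 and Usp36 fell below 0, to −0.016. Usp7 was 138, 144 and 139.8 FPKM with DMSO and 163, 150.02 and 155 with PFOA (log2 fold change 0.15, SE 0.041). The lowest PFOA value lay above the highest DMSO value, an 11.1% difference in means. Usp37, a cell cycle protease that also acts on MYC, was 11.3, 11.3 and 11.7 FPKM with DMSO and 14.6, 13.1 and 12.3 with PFOA (log2 fold change 0.20, SE 0.063). Its groups did not overlap either, and PFOA 1 was the highest by a wide margin. Usp28, which opposes the ligase adaptor FBXW7 on MYC, was 24.5, 26.3 and 24.8 FPKM with DMSO and 28.5, 25.5 and 26.6 with PFOA (log2 fold change 0.088, SE 0.051); PFOA 2 lay below DMSO 2, so the groups overlapped. Usp36, the nucleolar MYC protease, was 21.5, 20.1 and 20.5 FPKM with DMSO and 22.4, 21.1 and 21.3 with PFOA (log2 fold change 0.060, SE 0.045), and its groups overlapped as well. Usp10 was 87.96, 89.2 and 88.8 FPKM with DMSO and 92.2, 91.2 and 90.1 with PFOA (log2 fold change 0.040, SE 0.032), with groups that lay apart by less than 1 FPKM. Usp2, a protease of Mdm2 and cyclin D1, was 2.95, 2.89 and 3 FPKM with DMSO and 3.41, 3.54 and 2.72 with PFOA (log2 fold change 0.092, SE 0.085), where PFOA 3 was the lowest of all 6 libraries.

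Of the targets and partners of these proteases, Trp53 (p53), its ligase Mdm2 and Daxx were lower in mean, and Fbxw7 and Mdm4 were higher. Trp53 was 377, 370.1 and 353 FPKM with DMSO and 341, 356 and 379 with PFOA (log2 fold change −0.032, SE 0.0495), where PFOA 3 was the highest library. Mdm2 was 71.9, 69.2 and 72.8 with DMSO and 66.9, 66.4 and 70.4 with PFOA (log2 fold change −0.069, SE 0.039). Fbxw7 was 11.7, 12.4 and 12.7 with DMSO and 13.7, 12.02 and 13.03 with PFOA (log2 fold change 0.072, SE 0.059). Mdm4 and Daxx had log2 fold changes of 0.084 (SE 0.062) and −0.064 (SE 0.042). The groups overlapped for all of these genes. Their longest coding transcripts were 1867 nt for Trp53, 2673 for Daxx, 3145 for Mdm2, 4473 for Fbxw7 and 7105 for Mdm4. The part of length in these directions was not tested.

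The members linked to cell junctions and Hippo signalling were higher in 5 of 5 cases, with a median log2 fold change of 0.15. Their median transcript length was 6580 nt, and 86.7% of all tested genes of 6000 to 7999 nt were higher. With a trend on length removed from each library, the group median was 0.049. Usp9x, a very large protease known to protect beta-catenin and Hippo components from degradation, was 51.4, 53.97 and 55.6 FPKM with DMSO and 66.3, 59.4 and 56.9 with PFOA (log2 fold change 0.18, SE 0.059). PFOA 3 exceeded DMSO 3 by little, and PFOA 1 was far above the rest. Usp47, a relative of Usp7 known to act on E-cadherin, was 14.4, 14.3 and 14.3 FPKM with DMSO and 16.2, 16.1 and 15.7 with PFOA (log2 fold change 0.15, SE 0.040). Here the spread within each group was small and the groups lay clearly apart. Usp53, a tight junction protein, was 5.37, 5.27 and 5.39 FPKM with DMSO and 6.42, 5.76 and 6.29 with PFOA (log2 fold change 0.17, SE 0.058), and its paralog Usp54 was 11.5, 11.3 and 12.3 FPKM with DMSO and 13.9, 12.6 and 12.6 with PFOA (log2 fold change 0.14, SE 0.057). Both had every PFOA library above every DMSO library. The Y-linked Usp9y, at 1.14, 1.24 and 1.26 FPKM with DMSO and 1.29, 1.34 and 1.15 with PFOA, overlapped between the groups (log2 fold change 0.030, SE 0.076).

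Histone and chromatin proteases were divided: 4 of 9 were higher and 5 lower, and their median log2 fold change was −0.020. Usp22 was 28.5, 29.4 and 29.99 FPKM with DMSO and 34.05, 30.9 and 30.6 with PFOA (log2 fold change 0.11, SE 0.050), each PFOA value being above each DMSO value. The related Usp27x and Usp51, which use the same SAGA adaptors, overlapped between the groups: Usp27x was 3.2, 3.46 and 2.8 FPKM with DMSO and 2.95, 2.94 and 3.03 with PFOA and Usp51 1.95, 1.43 and 1.49 FPKM with DMSO and 1.51, 1.51 and 1.5 with PFOA. Of 4 genes listed for these adaptors, 2 were lower in mean and 2 higher. Atxn7l3 was 49.4, 45.8 and 45.6 FPKM with DMSO and 43.6, 42.8 and 45.9 with PFOA, and Eny2 was 12.4, 13.7 and 12.7 against 10.7, 11.8 and 12.4 (log2 fold changes −0.089, SE 0.046, and −0.14, SE 0.063). Atxn7 and Atxn7l3b had log2 fold changes of 0.091 (SE 0.092) and 0.021 (SE 0.050). All 4 overlapped between the groups.

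Of the histone H2A proteases, Usp16 was 19.6, 20.8 and 21.4 FPKM with DMSO and 22.5, 22.2 and 21.5 with PFOA (log2 fold change 0.10, SE 0.046), with PFOA 3 just above DMSO 3. Usp3 was 7.51, 6.98 and 7.72 FPKM with DMSO and 6.54, 8.13 and 7.02 with PFOA (log2 fold change −0.034, SE 0.078), with PFOA 1 the lowest and PFOA 2 the highest of all libraries. Usp21, which also acts on the pluripotency factor NANOG, was 33.4, 34.5 and 31.5 FPKM with DMSO and 30.4, 30.5 and 33.2 with PFOA (log2 fold change −0.075, SE 0.051). It had the lowest fold change of the family, and PFOA 3 lay inside the DMSO range. Usp42 was 8.63, 9.02 and 8.82 FPKM with DMSO and 9.48, 9.28 and 9.45 with PFOA (log2 fold change 0.083, SE 0.046), without overlap. Usp44, a mitotic checkpoint and H2B protease, was 7.34, 7.62 and 7.57 FPKM with DMSO and 8.25, 6.95 and 7.04 with PFOA, with DMSO inside the PFOA range, and its relative Usp49 was 3.27, 2.94 and 3.07 FPKM with DMSO and 3.5, 3.36 and 3.12 with PFOA, with overlap.

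Signalling members were higher in 6 of 6 cases, with a median log2 fold change of 0.11. Their median transcript length was 10396 nt, and 92.7% of all tested genes of 8000 nt or more were higher. With the length trend removed, the group median was 0.045. Usp34, which stabilises axin in Wnt signalling and had the largest difference of the family on the deposited scale, was 18.9, 18.6 and 19.2 FPKM with DMSO and 24.3, 21.7 and 21.2 with PFOA (log2 fold change 0.23, SE 0.055). The lowest PFOA value was above the highest DMSO value by more than the whole DMSO range. In addition 16.8% of the 50-nt words of Usp34 occur in transcripts of other genes, mainly Ahsa2. Usp24, another very large protease, was 15.1, 15.1 and 15.1 FPKM with DMSO and 18.6, 16.8 and 16.4 with PFOA (log2 fold change 0.18, SE 0.053), with DMSO values within 0.1 FPKM of each other and all PFOA values above them. Among the 3 related proteases that act on TGF-beta receptors and SMADs, Usp4 was 31.3, 30.4 and 31.8 FPKM with DMSO and 33.1, 33.8 and 34.2 with PFOA (log2 fold change 0.11, SE 0.037) and Usp15 was 46.97, 47.1 and 47.5 FPKM with DMSO and 49.1, 50.02 and 50.5 with PFOA (log2 fold change 0.078, SE 0.034). Neither overlapped between the groups. The third of them, Usp11, here grouped with DNA repair for its work with BRCA2, was 12.4, 13.98 and 13.6 FPKM with DMSO and 13.6, 13.8 and 14.2 with PFOA (log2 fold change 0.053, SE 0.053), and it overlapped. Usp25 and Usp31, of tankyrase and NF-kappaB signalling, had log2 fold changes of 0.10 (SE 0.062) and 0.096 (SE 0.070), with PFOA 3 inside the DMSO range in both.

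Among the DNA repair proteases and partners of UAF1, 5 of 6 were higher, but the median log2 fold change was 0.041. Usp45, which acts on the ERCC1-XPF nuclease, was 11.6, 11.04 and 11.1 FPKM with DMSO and 14.4, 12.4 and 12.6 with PFOA (log2 fold change 0.21, SE 0.062), the second largest change of the family. Usp48 was 70.8, 75.3 and 76.1 FPKM with DMSO and 88.2, 80.7 and 82.03 with PFOA (log2 fold change 0.17, SE 0.047). Both had groups that did not overlap. The 3 proteases that are activated by the WD-repeat protein UAF1, encoded by Wdr48, differed little: Usp1 was 67.3, 69.4 and 68.1 FPKM with DMSO and 69.8, 67.6 and 69.6 with PFOA (log2 fold change 0.015, SE 0.034), Usp12 15.5, 15.5 and 15.5 FPKM with DMSO and 15.5, 15.3 and 15.3 with PFOA (log2 fold change −0.010, SE 0.039) and Usp46 10.1, 9.41 and 9.95 FPKM with DMSO and 11.4, 9.8 and 9.05 with PFOA (log2 fold change 0.030, SE 0.077). The 95% confidence intervals of these 3 log2 fold changes were −0.063 to 0.094, −0.10 to 0.079 and −0.15 to 0.21. Wdr48 itself was 21.2, 20.2 and 20.5 FPKM with DMSO and 22.1, 20.1 and 21.1 with PFOA, so the activator overlapped between the groups too.

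For proteases of membranes and organelles, 4 of 6 were higher, with a median log2 fold change of 0.056. Usp8, which works with the STAM proteins on endosomes, was 30.6, 30.4 and 31.1 FPKM with DMSO and 33.7, 32.9 and 32.4 with PFOA (log2 fold change 0.10, SE 0.036), and Usp32, an endosome and Golgi protease, was 10.5, 10.7 and 10.7 FPKM with DMSO and 12.7, 11.8 and 11.5 with PFOA (log2 fold change 0.16, SE 0.050). Neither overlapped. Of the STAM genes, Stam2 was 14.9, 14.9 and 14.4 FPKM with DMSO and 17.8, 15.5 and 15.7 with PFOA (log2 fold change 0.14, SE 0.057). Stam had a log2 fold change of 0.028 (SE 0.039). These were the 2 of 16 listed partners that lay wholly above DMSO, as 13.5% of all tested genes did. Usp19, anchored in the endoplasmic reticulum, was 47.5, 45.7 and 47.3 FPKM with DMSO and 48.6, 48.02 and 50.6 with PFOA (log2 fold change 0.066, SE 0.038), again with all PFOA values higher. Usp33 and Usp20, a pair that acts on beta-adrenergic receptors, had log2 fold changes of 0.047 (SE 0.045) and −0.0021 (SE 0.074). Usp30, the mitochondrial protease that opposes Parkin, had one of −0.016 (SE 0.053). All 3 overlapped between the groups.

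The proteases of free chains and the proteasome were the group least shifted towards PFOA, with 1 of 3 higher. Usp5 was 64.2, 63.6 and 64.2 FPKM with DMSO and 62.4, 62.1 and 62.2 with PFOA (log2 fold change −0.039, SE 0.032). It was the single member with every PFOA value below every DMSO value, with a difference in means of −2.73%. Usp14 was 57.7, 61.8 and 62.9 FPKM with DMSO and 59.7, 57.8 and 62.1 with PFOA (log2 fold change −0.021, SE 0.045), and its groups overlapped, as did those of Usp13, the rare relative of Usp5, at 1.3, 1.4 and 1.65 FPKM with DMSO and 1.59, 1.62 and 1.52 with PFOA (log2 fold change 0.075, SE 0.080).

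The 6 remaining tested members, Usp26, Usp35, Usp38, Usp39, Usp40 and Usp43, had log2 fold changes from 0.0033 for Usp39 to 0.071 for Usp38. All were above 0 in mean and all overlapped between the groups. Usp39 was 57.9, 59.7 and 57.1 FPKM with DMSO and 58.96, 59.7 and 56.4 with PFOA, and the 95% confidence interval of its log2 fold change was −0.084 to 0.091. The germline gene Usp26 was 2.05, 2.27 and 2.28 FPKM with DMSO and 2.33, 2.13 and 2.33 with PFOA.

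The length of the transcript moved with these differences. The median length of the longest coding transcript (GENCODE M21) was 4738 nt for the 47 tested members, from 2204 nt for Usp51 to 12200 nt for Usp34, and 3063 nt for the tested genes with a length. Of the members 76.6% reached 4000 nt, against 33.3% of those genes. Across the members, Spearman's rho between log2 length and log2 fold change was 0.572 (Pearson's r 0.628, n = 47 genes), and across all 11411 tested genes with a length it was 0.602 (r 0.570). These points are genes of the same 6 libraries and not independent replicates.

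Within classes of length, the members lay close to genes in general in some classes and above or below them in others. At 4000 to 5999 nt, the median log2 fold change was 0.047 for 23 members and 0.043 for the 2324 genes of that class. At 8000 nt or more, 7 members had a median of 0.096 and 593 genes 0.13, with 92.7% of these genes higher. At 6000 to 7999 nt the 6 members had 0.17 against 0.092 for 888 genes, and at 3000 to 3999 nt the 7 members had 0.053 against 0.0064 for 2089 genes. The 4 members of 2000 to 2999 nt, Usp21, Usp39, Usp44 and Usp51, had a median of −0.040 against −0.030. The genes of at least 4000 nt as a whole stood at 0.11, 0.049 and 0.042 above the DMSO mean in PFOA 1 to 3, so PFOA 1 was the highest library for long transcripts in general.

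**Figure D3:**
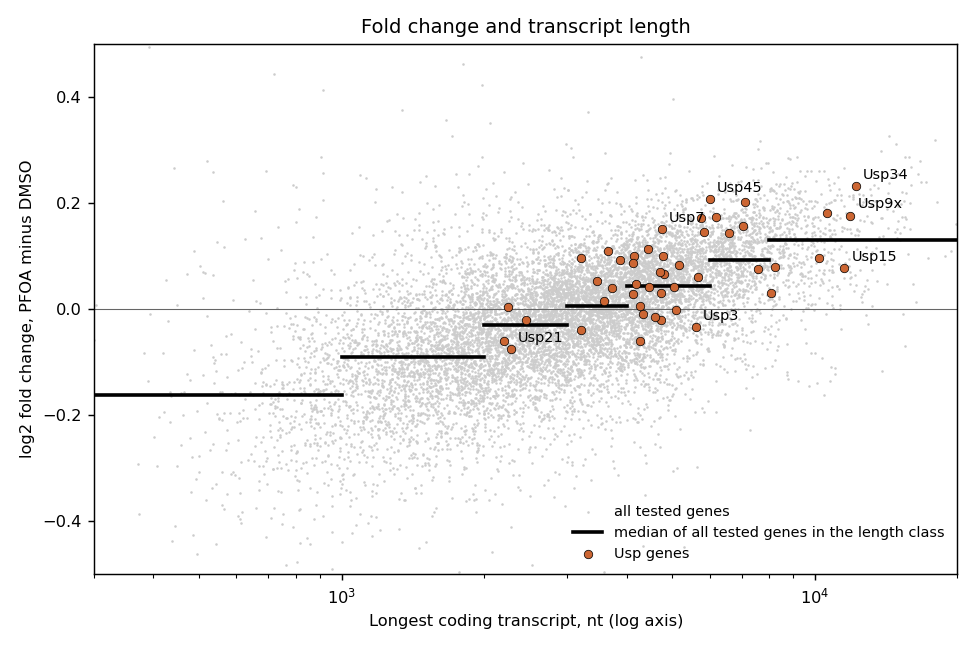
Log2 fold change of PFOA minus DMSO (vertical axis) against the length of the longest coding transcript (horizontal log axis, nt) for tested genes (grey; the few beyond the axes are not drawn) and for the 47 Usp genes (orange). The black bars, the median of all tested genes in each length class, climb from −0.16 under 1000 nt to 0.13 at 8000 nt or more. The Usp genes tend to rise with length too, with medians above the bar in some classes and below it in others.

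When a trend on length was removed from each library before the fit, the median log2 fold change of the members was 0.012, beside −0.011 over all tested genes. Then 25 of 47 members were higher, where 44.7% of all genes were. Every PFOA library was above every DMSO library for 12 members, where 8.21% of genes were, and below for 2, Usp5 and Usp12, where 11.6% were. At an unadjusted p under 0.05, 5 members were higher and 0 lower, against 4.61% and 9.25% of all genes. The median of the members relative to the DMSO mean was 0.0015, 0.0084 and −0.0029 in the DMSO libraries and 0.020, 0.027 and 0.011 in the PFOA libraries. It had been −0.0080, 0.00060 and 0.011 against 0.094, 0.074 and 0.043 before.

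**Figure D4:**
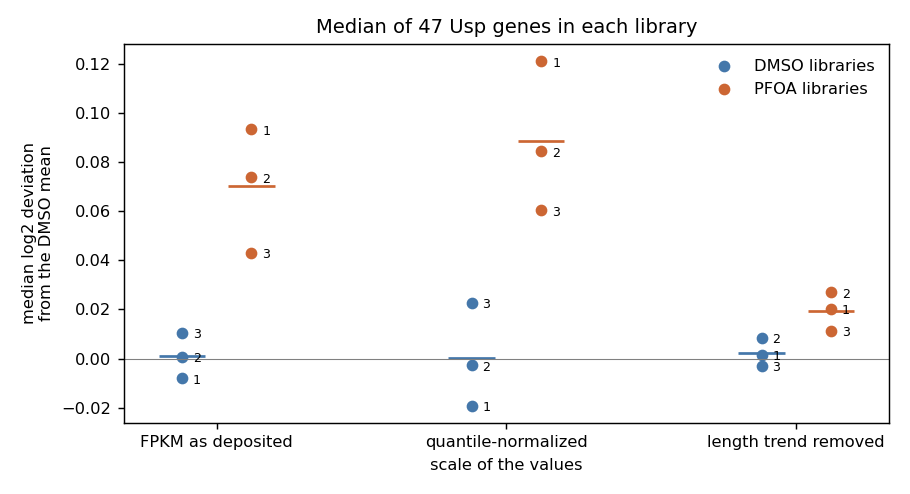
Median over the 47 tested Usp genes of the log2 deviation from the DMSO mean (vertical axis) in each library, for 3 scales of the values (horizontal axis); points are libraries with their replicate number and short lines are group means. The PFOA libraries lie at 0.043 to 0.094 on the deposited scale and at 0.011 to 0.027 with the length trend removed, each time above the 3 DMSO libraries.

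The members did not all follow length alike. With the trend removed, Usp45 had a log2 fold change of 0.12 (SE 0.051), Usp37 0.098 (SE 0.046), Usp7 0.098 (SE 0.032), Usp48 0.094 (SE 0.034), Usp4 0.091 (SE 0.035) and Usp34 0.082 (SE 0.036). In each of these 6 genes every PFOA library was again above every DMSO library, as it was in Usp8, Usp22, Usp24, Usp32, Usp47 and Usp53. Usp9x went from 0.18 to 0.029 (SE 0.032), and PFOA 3 then lay inside the DMSO range. Usp15, one of the longest members at 11525 nt, went from 0.078 to −0.068 (SE 0.051), and Usp36 from 0.060 to −0.016 (SE 0.040). In all, 12 of the 47 members changed sign. By role, the medians with the trend removed were 0.061 for MYC and p53, 0.049 for junctions, 0.045 for signalling and 0.020 for DNA repair. They were 0.012 for membranes, −0.0039 for the remaining members, −0.029 for chromatin and −0.046 for free chains.

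Among genes listed with the other deubiquitinases, more were lower than higher, though whether they differ from the Usp genes was not tested. The lists go by family or fold, so not every gene in them, Pan2 for 1, encodes an active ubiquitin protease. Of 36 tested genes in 5 lists of other families, 12 were higher and 24 lower (median log2 fold change −0.035), and 0 passed over all genes in limma (Benjamini-Hochberg adjusted p of at least 0.118). At an unadjusted p under 0.05 in limma, 3 were higher and 4 lower, where 8.56% and 12.5% of all tested genes were. Of all tested genes 52.4% had a log2 fold change below 0. Their median transcript length was 3109.5 nt. With the length trend removed their median was −0.00040, beside 0.012 for the Usp genes. In the UCH family 4 of 4 were lower, among them Uchl5 of the proteasome, at 66.5, 63.8 and 61.8 FPKM with DMSO and 58.0, 54.7 and 61.0 with PFOA. Of the JAMM metalloproteases 5 of 8 were lower, with Cops5, the catalytic subunit of the COP9 signalosome, at 80.5, 77.7 and 79.1 against 71.2, 71.5 and 69.8. Neither gene overlapped between the groups. The UCH and JAMM families had median transcript lengths of 1511 and 1862.5 nt, and 17.9% of all tested genes of 1000 to 1999 nt were higher. With the length trend removed, their median log2 fold changes were −0.014 and 0.0023. Of the OTU family 5 of 14 were higher, of the Josephin, MINDY and ZUP1 families 2 of 7, and of the 3 genes with a Usp-like fold under another name 2. In the OTU family 2 genes lay wholly above DMSO and 2 wholly below, against 13.5% and 13.7% of all tested genes. Otud4, 1 of those above, was 24.5, 25.4 and 25.5 with DMSO and 29.7, 27.0 and 27.0 with PFOA. Its longest coding transcript was 7354 nt, and 86.7% of all tested genes of 6000 to 7999 nt were higher. Those below were Otub2 and Otud5, with log2 fold changes of −0.18 (SE 0.072) and −0.070 (SE 0.0385). Pan2, which carries a Usp-like fold without protease activity, was 18.4, 18.9 and 20.3 against 23.3, 20.8 and 22.2.

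Of the genes that encode ubiquitin, Rps27a, which makes it fused to a ribosomal protein, was 1166, 1253 and 1166 FPKM with DMSO and 780, 1026 and 904 with PFOA (log2 fold change −0.41, SE 0.092). The polyubiquitin gene Ubb was 1890, 1905 and 1812 with DMSO and 1764, 1800.2 and 1621 with PFOA. In both, every PFOA value lay below every DMSO value, and 0 of these 2 genes passed over all genes. Reads shared with their pseudogenes were not assessed. Among 16 partners and cofactors of the Usp proteins, 10 were higher and 6 lower (median log2 fold change 0.025), and 0 passed.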

How the data were processed

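The authors deposited a single table of FPKM with 2 decimals and 1 column per library. Per the submitters' processing notes, HISAT2 2.0.4, Bowtie2 2.2.5 and build GRCm39 were used; how fragments were counted, and on which gene models, is not given in the sources used here. The table holds no counts, so depth per library is unknown. FPKM scales each library by its mapped fragments, so a shift in abundant or short transcripts moves all others. Columns were matched to libraries by title.

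Values were taken as log2(FPKM + 1), and 6512 genes with a mean below 1 FPKM were left out. PFOA was compared with DMSO across 11876 genes in limma 3.58.1 (R 4.3.3), two-sided, with a prior variance that follows the mean level and Benjamini-Hochberg adjustment at 0.05. The fit was tested on simulated data. Members, roles, paralog pairs and lists were chosen with earlier results of these data known, every member could be named, and up to 4 genes of each other list were taken by smallest p, besides partners named for their role. Some genes of these lists are not reported here. Transcript lengths came from GENCODE M21, whose symbols matched 17622 of 18388 rows and gave a length for 96.1% of tested genes. The length trend was a spline with 5 degrees of freedom per library. Shared 50-nt words were counted on both strands. Alternatives were another pseudocount (0.1), no filter or a mean of at least 5 FPKM, quantile normalization, no variance trend, the replicate number as a block, the length trend, and leaving out each library.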

Additional observations from a re-analysis of the deposited data

How the results depend on the processing

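No member passed the adjusted threshold (0 of 47) under any of the 14 settings tried, and every setting kept the median log2 fold change of the members above 0. Leaving out 1 library at a time gave medians of 0.051 to 0.082, with 1 to 3 members wholly below DMSO and 0 to 70 genes passing among all tested; the lowest median was without PFOA 1. All genes passing went from 1 to 0 with no filter on low values, without a variance trend, with the length trend removed and with the replicate block. With the length trend removed the median was 0.012, 5 members were higher at an unadjusted p under 0.05, 12 lay wholly above DMSO and 2 wholly below. Quantile normalization left 0 members wholly below. With DMSO 3 as the sole control, a fit chosen after the data were seen that assumes DMSO 3 varies like the PFOA libraries, the median was 0.064. This arm of 1 library leaves fewer degrees of freedom: 0 members (limma) and 1.46% of all genes were then higher at an unadjusted p under 0.05, and 0 genes passed. With 1 control value to clear, 26 members lay wholly above (29.1% of all genes) and 6 wholly below (26.1%). The replicate block left 11 members higher at an unadjusted p under 0.05 in limma, against 15. By the labels, same-numbered libraries shared only a number, and whether they were prepared together is not stated. Correlations of their deviations were −0.11, −0.010 and −0.14. The sign of 25 of the 47 members was the same in every setting, 23 of them higher and 2 lower (Usp5 and Usp21). The filters, the variance prior and the replicate block leave each fold change as it was, so they could not change a sign. Most sign changes, 12, came with the length trend removed. The same count was not made over all tested genes, so nothing is read from it. Depth is unknown, so no limit from it can be given for the low members.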
